A study of Homo sapiens with 10 samples.

Results

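The RNA levels of 46 genes of mitosis and DNA replication were followed in cultured cells of SW620, an established human colon cancer line derived from a lymph node metastasis. The 46 genes are a list of names; the rule that picks them uses no measured value, but the list was drawn up with earlier results of these data known. All of them were measured, among 4713 genes in the analysed table, of which 4661 lie on chromosomes 1, 10, 11 and 12. The list has 21 genes on chromosome 1, 9 on chromosome 10, 7 on chromosome 11 and 9 on chromosome 12, so members of these pathways on other chromosomes are not analysed here. There were 10 Affymetrix arrays in 3 groups: 4 of parental SW620 cells, 3 of derivatives recovered from liver metastases and 3 of derivatives recovered from lung metastases, both kinds selected by growth in balb/c nude mice, a host without mature T cells. The labels call the arrays of a group biological replicates and do not say whether they stem from separate metastases, clones or cultures. A p-value here therefore sets a group difference against the spread between these arrays only. At issue in the comparisons is what distinguished the liver and the lung derivatives from parental cells and from each other. Values are RMA log2 expression levels, averaged over a gene's rows in the table (3 to 35 rows a member, median 16), and a difference of 1 is a doubling. A gene was called when the adjusted p of limma's moderated test over all 4713 genes was under 0.05. Because the signal of an array row depends on its probes, levels of different genes are not compared.

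Cells that divide switch on these genes in an ordered way. E2F transcription factors, held back by the retinoblastoma protein until the cell commits to division, drive genes that license and fire replication origins and build the replication fork. Later, in G2 and mitosis, FOXM1, B-MYB and the MuvB complex drive genes for kinetochores, spindle motors and cytokinesis. In resting cells the DREAM complex holds both groups silent, acting through E2F sites or through the cell cycle homology region (CHR) near the transcription start, often beside CCAAT boxes bound by NF-Y. The RNAs of most of these genes are therefore high in proliferating cells and low in cells at rest, and several, MKI67 above all, serve as proliferation markers in colon tumours. In a bulk sample, fewer cells in a given phase of the cycle and less RNA per cell cannot be told apart.

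Promoter sequences of the members were looked up for the E2F, CHR and CCAAT elements named above, because most members were lower in the lung derivatives. A promoter, from 250 bases before to 50 after the first listed start, was held for 41 of 46 members in the RefSeq table (GRCh38.p14), and not for CENPL, BUB3, FOXM1, RACGAP1 and TROAP. The letters searched, on both strands and with overlaps counted, were TTTGAA or TTTAAA or TTCGAA or TTCAAA for a CHR element, CCAAT for a CCAAT box, and TTTCCCGC or TTTGGCGC or TTTCGCGC or TTCCCGCC or TTGGCGCC for an E2F site. The 140 bases before the start follow for 7 members of the kinetochore, spindle, replication and repair groups, chosen after their values were seen, 5′ to 3′ along the gene with matches in capitals. CDC20 (chr1:43358841-43358980, plus strand), CDCA8 (chr1:37692376-37692515, plus strand) and ASPM (chr1:197146670-197146809, minus strand) show CHR elements with CCAAT boxes, RAD51AP1 (chr12:4538750-4538889, plus strand), DTL (chr1:212035608-212035747, plus strand) and HELLS (chr10:94545648-94545787, plus strand) show E2F sites, and MCM10 (chr10:13161418-13161557, plus strand), the member that rose, shows CCAAT boxes without either.
CDC20: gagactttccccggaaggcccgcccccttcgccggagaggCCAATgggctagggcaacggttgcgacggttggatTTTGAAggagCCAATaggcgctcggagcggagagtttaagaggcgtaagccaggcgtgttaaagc
CDCA8: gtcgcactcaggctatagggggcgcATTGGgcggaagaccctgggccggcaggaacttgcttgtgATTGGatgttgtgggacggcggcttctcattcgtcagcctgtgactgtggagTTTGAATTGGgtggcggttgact
ASPM: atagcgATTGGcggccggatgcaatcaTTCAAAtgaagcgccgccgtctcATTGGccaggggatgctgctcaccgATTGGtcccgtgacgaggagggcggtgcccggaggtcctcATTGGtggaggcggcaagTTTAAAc
RAD51AP1: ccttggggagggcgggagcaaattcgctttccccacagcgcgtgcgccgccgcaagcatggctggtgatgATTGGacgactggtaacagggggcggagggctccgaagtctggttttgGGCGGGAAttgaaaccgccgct
DTL: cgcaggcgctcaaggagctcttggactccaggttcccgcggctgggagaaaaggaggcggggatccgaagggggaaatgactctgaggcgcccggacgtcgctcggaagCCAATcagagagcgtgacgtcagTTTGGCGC
HELLS: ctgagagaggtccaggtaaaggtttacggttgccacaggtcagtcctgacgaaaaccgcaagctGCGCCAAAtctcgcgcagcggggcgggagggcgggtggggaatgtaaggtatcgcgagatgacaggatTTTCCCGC
MCM10: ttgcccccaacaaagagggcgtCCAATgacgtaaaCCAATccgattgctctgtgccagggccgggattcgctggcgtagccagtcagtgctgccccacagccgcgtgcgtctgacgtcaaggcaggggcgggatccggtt

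A CHR match was present in 25 of 41 member promoters (61.0%), against 22.1% of the promoters of all measured genes and 25.3% of all promoters in the table. At least 2 CCAAT boxes were present in 36.6%, against 12.9% and 11.3%, and an E2F match in 39.0%, against 7.50% and 5.81%. Of the 16 replication, checkpoint and repair members with a promoter, 10 had an E2F match and 2 a CHR match. Of the other 25, 6 had an E2F match and 23 a CHR match. Members without a CHR or E2F match include CHEK1 and ORC1, which were lower in the lung derivatives, beside MCM10. A match is a run of letters and no measurement of binding.

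Most of the members were lower in the lung derivatives than in parental cells, while the median member was near the parental level in the liver derivatives. Relative to each gene's mean over the 10 arrays, the median member stood at 0.14, 0.11, 0.06 and 0.00 (log2) in parental arrays 1 to 4, at 0.03, 0.07 and 0.09 in the liver arrays and at -0.15, -0.11 and -0.21 in the lung arrays. The same median over all genes stayed between -0.02 and 0.02 on every array. In lung against parental cells, 27 of 46 members were called lower, against 17.3% of all genes, and 1 was called higher, against 12.9%. The median change of the 46 was -0.26, against -0.01 over all genes, and 44 of 46 changes were negative, against 51.1% of genes. In 26 members every lung array was below every parental array, against 19.5% of genes. Genes at the members' levels were lower in lung cells more often than genes as a whole, of which 2127 had a mean level under 8 and a median change of 0.13. At levels of 9 to 10, 10 to 11 and 11 to 12, which hold 9, 23 and 10 members, other genes had median changes of -0.11, -0.12 and -0.11, and the members -0.32, -0.28 and -0.25. In the same ranges 71.6%, 74.8% and 77.2% of other genes had a negative change, and 30.2%, 29.2% and 22.5% were called lower, against 66.7%, 56.5% and 60.0% of members. In liver against parental cells, 1 member was called higher, against 4.33% of genes, and 1 lower, against 3.50%. The median change of the members there was -0.01, against 0.01 over all genes.

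**Figure D1:**
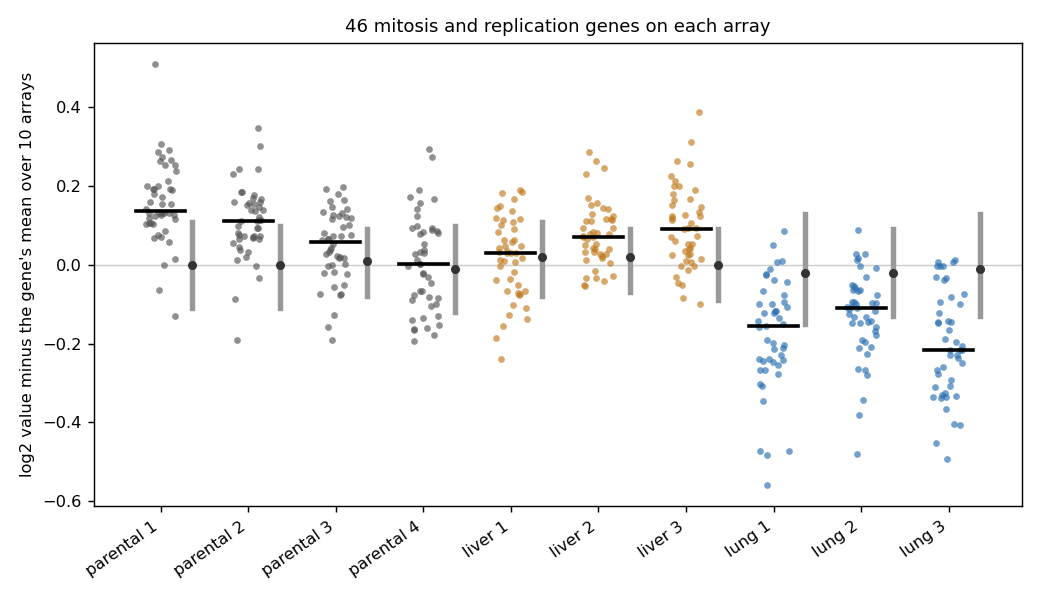
Distribution over the 46 members of the deviation from each gene's 10-array mean (log2, y axis), by array (x axis). Coloured points are single genes, the black bar their median, and the grey bar and dot the quartiles and median of all 4713 genes. The member medians fall from 0.14 in parental array 1 to 0.00 in parental array 4 and lie between -0.21 and -0.11 in the 3 lung arrays, while all genes stay near 0.

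Parental array 4 stood apart from the other parental arrays, and the lung result depends on how it is used. Its correlation across rows with parental arrays 1 to 3 was 0.968 to 0.970, against 0.987 to 0.989 among those arrays, and 0.966 to 0.967 with the lung arrays, against 0.946 to 0.961 between parental arrays 1 to 3 and the lung arrays. Parental array 4 was below the other 3 parental arrays in 27 members, above them in 6 and within them in 13. This count and the next were made for the members only. Whether other genes place the array likewise was not tested. Set against the lung arrays, it was above all 3 in 33 members, among them in 10 (NEK2, CDC20, ESPL1, FOXM1, CDCA5, POLA2, INCENP, E2F2, FEN1 and RCC1) and below them in 3 (CDCA3, CKS1B and MCM10). With a term that sets parental array 4 and the lung arrays apart from the rest, the lung estimate equals the lung mean minus parental array 4 alone. Then 42 of 46 changes were negative with a median of -0.16, and 1 member, CENPL, was called lower, against 2.67% of genes, with 0 called higher, against 3.08%. At an unadjusted p under 0.05, 15 members were lower and 1 higher under that term. Without parental array 4, 31 members were called lower, against 23.2% of genes, 1 was called higher, against 18.2%, and the median was -0.29. With all arrays 28 members were called in either direction. There were 15 without parental array 1, 15 without parental array 2, 17 without lung array 1 and 18 without lung array 3. Calls over all genes fell too, from 1420 to 847, 832, 838 and 1116 in the same order.

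Other values moved with the lung group too. The 75th percentile of all rows was 10.16 to 10.22 on the lung arrays and 10.25 to 10.29 on the others. All genes called in lung against parental cells were 606 higher and 814 lower as deposited, 641 and 582 after quantile normalization and 750 and 633 after median centring. Member changes were negative for 42 genes after quantile normalization, with 17 called lower, and for 44 after median centring, with 21 called lower. The epithelial keratins KRT8 and KRT18 averaged 12.75 and 11.62 in parental cells and were called in neither derivative, and 2 of 7 measured colon epithelial markers, LGR5 and TSPAN8, were lower in both kinds of derivative. Some markers of other cells were called higher in the lung derivatives, against 12.9% of all genes. They were 3 of 6 lung epithelial genes (SFTPA1, SFTPA2 and PDPN) and 2 of 5 stromal genes (DCN and MMP3). So were 3 of 6 leukocyte genes (CD4, LYZ and PTPRC). Lower were 1 stromal gene (LUM) and 1 of 7 hepatocyte genes, against 17.3% of all genes. In the liver derivatives CD4 (0.99) and LYZ (0.97) were called higher too and LUM (-1.97) lower, so these 3 shifts were not particular to the lung group. The mean level of the lung epithelial list was 7.26 to 7.42 in parental, 7.34 to 7.46 in liver and 7.49 to 7.61 in lung arrays, that of the stromal list 6.56 to 6.84, 6.31 to 6.34 and 6.55 to 6.93, and that of the leukocyte list 6.53 to 6.61, 6.83 to 6.93 and 6.97 to 7.04. Their part in the member changes was not tested.

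**Figure D2:**
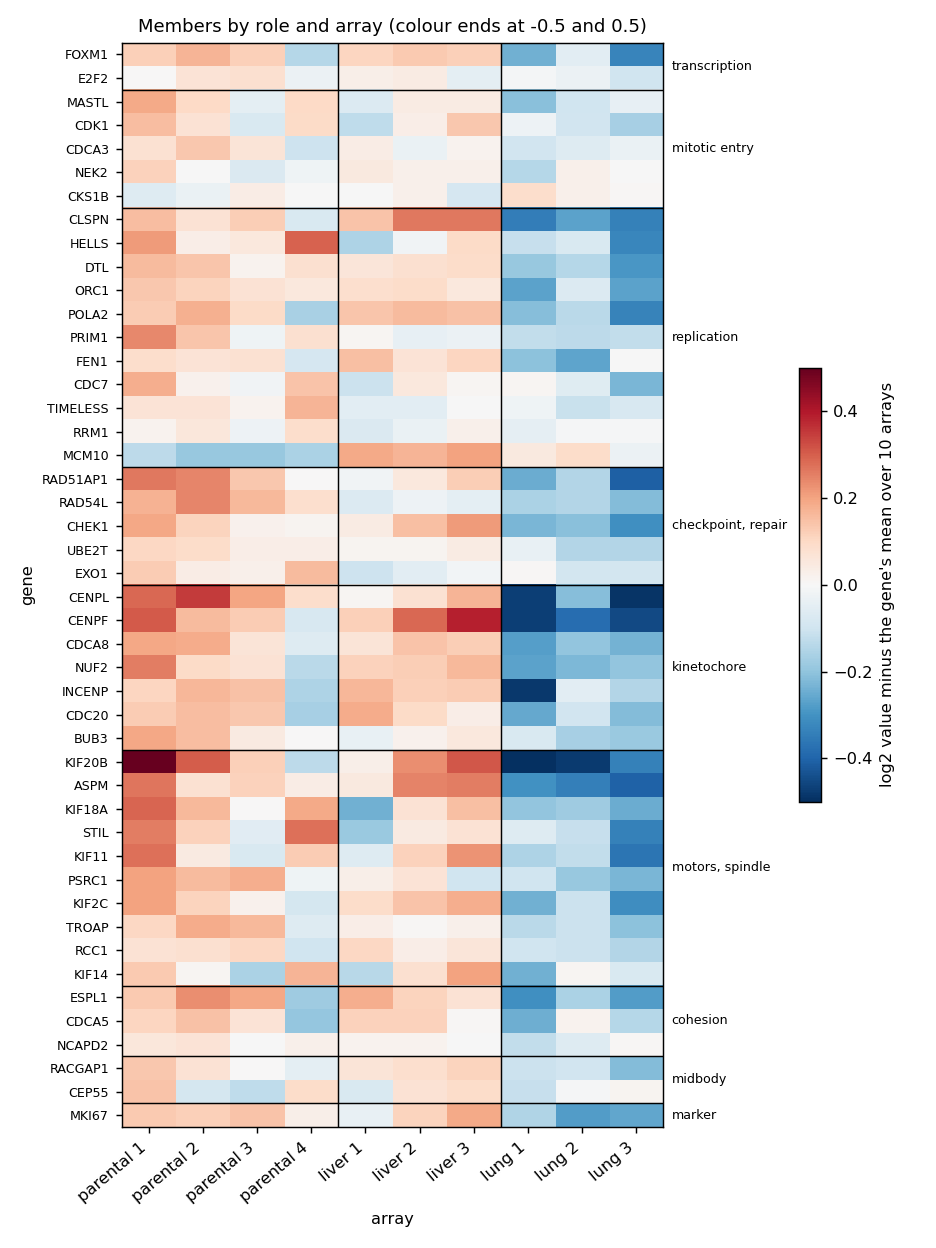
Deviation of each of the 46 members (rows, grouped by role) from its 10-array mean (log2, colour) on each array (columns). The 3 lung columns are lower than the parental and liver columns for most rows, and MCM10 is the row with raised values in both kinds of derivative.

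Genes of the kinetochore, the structure that ties chromosomes to spindle microtubules, and of its checkpoint were called lower in the lung derivatives in 6 of 7 cases, against 17.3% of all genes, and in 1 of 7 against parental array 4 alone. CENPL, a subunit of the centromere network on which kinetochores are built, read 8.91, 8.97, 8.82 and 8.71 in the parental arrays, 8.63, 8.70 and 8.79 in the liver arrays and 8.15, 8.41 and 8.13 in the lung arrays. Every lung array was below every other array. The fall was 1.54-fold against parental cells (log2 change -0.62, SE 0.09, adjusted p = 0.000909), and CENPL kept its call against parental array 4 alone (-0.48, adjusted p = 0.0476). CENPF, a large coiled-coil protein of the outer kinetochore whose level peaks in G2 and mitosis, read 10.99, 10.84, 10.81 and 10.60 in the parental arrays, 10.80, 10.97 and 11.07 in the liver arrays and 10.21, 10.30 and 10.23 in the lung arrays. The lung arrays lay apart from all others, 1.48-fold below the parental mean (log2 change -0.57, SE 0.09, adjusted p = 0.00200), and 20 of its 21 rows had a negative change. Against parental array 4 alone the change was -0.36 (adjusted p = 0.0946).

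NUF2, a subunit of the NDC80 complex that grips microtubules, read 10.74, 10.58, 10.56 and 10.35 in the parental arrays, 10.60, 10.61 and 10.65 in the liver arrays and 10.22, 10.26 and 10.29 in the lung arrays (log2 change in lung against parental cells -0.30, adjusted p = 0.0197). BUB3, a checkpoint protein that waits on unattached kinetochores, read 11.50, 11.46, 11.35 and 11.31 in the parental arrays, 11.27, 11.33 and 11.36 in the liver arrays and 11.23, 11.14 and 11.12 in the lung arrays (-0.24, adjusted p = 0.0194). In both genes the lung arrays were below all others. CDCA8 (borealin), a part of the chromosomal passenger complex that carries Aurora B kinase, read 10.51, 10.50, 10.38 and 10.25 in the parental arrays, 10.38, 10.46 and 10.44 in the liver arrays and 10.04, 10.12 and 10.08 in the lung arrays (-0.33, adjusted p = 0.00816). INCENP, the scaffold of that complex, read 10.25, 10.31, 10.29 and 9.99 in the parental arrays, 10.31, 10.26 and 10.27 in the liver arrays and 9.66, 10.09 and 9.997 in the lung arrays (-0.29, adjusted p = 0.0561). CDCA8 passed the test with its lung arrays below all others, while INCENP missed it and 2 of its lung arrays were above parental array 4. CDC20, the activator of the anaphase-promoting complex, read 11.35, 11.38, 11.36 and 11.06 in the parental arrays, 11.41, 11.32 and 11.26 in the liver arrays and 10.97, 11.13 and 11.01 in the lung arrays (-0.25, adjusted p = 0.0472). Its lung arrays were below parental arrays 1 to 3 and on both sides of parental array 4, and against that array alone the change was -0.02.

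Motors and spindle proteins were called lower in 8 of 10 cases, against 17.3% of all genes, and limma called 0 of the 10 against parental array 4 alone (3 lower at an unadjusted p under 0.05). KIF20B, a kinesin of cytokinesis, had the most negative change of all members: it read 10.35, 10.14, 9.96 and 9.71 in the parental arrays, 9.87, 10.07 and 10.15 in the liver arrays and 9.28, 9.36 and 9.50 in the lung arrays, a 1.58-fold fall from the parental to the lung mean (log2 change -0.66, SE 0.13, adjusted p = 0.00560). All 35 of its rows had a negative change, and the lung arrays were below every other array, although the parental arrays themselves spanned 9.71 to 10.35 and the change against parental array 4 alone was -0.33 (adjusted p = 0.230). ASPM, which focuses microtubules at spindle poles, read 10.61, 10.42, 10.46 and 10.38 in the parental arrays, 10.39, 10.59 and 10.60 in the liver arrays and 10.04, 10.001 and 9.94 in the lung arrays (log2 change -0.47, SE 0.08, adjusted p = 0.00177). ASPM also had no overlap, and its fall was -0.38 against parental array 4 alone (adjusted p = 0.0673). PSRC1, a spindle protein that takes part in chromosome alignment, read 10.11, 10.07, 10.09 and 9.89 in the parental arrays, 9.94, 9.98 and 9.81 in the liver arrays and 9.81, 9.72 and 9.68 in the lung arrays (-0.30, adjusted p = 0.0126), with all lung arrays below all parental arrays.

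KIF18A, a kinesin that dampens chromosome movements on the spindle, read 9.96, 9.83, 9.67 and 9.86 in the parental arrays, 9.43, 9.74 and 9.82 in the liver arrays and 9.47, 9.49 and 9.42 in the lung arrays (log2 change in lung against parental cells -0.37, adjusted p = 0.0173). KIF2C, a kinesin that takes microtubules apart and corrects faulty attachments, read 10.28, 10.19, 10.10 and 9.99 in the parental arrays, 10.17, 10.22 and 10.26 in the liver arrays and 9.84, 9.97 and 9.77 in the lung arrays (-0.28, adjusted p = 0.0236). TROAP, a microtubule-associated protein of the spindle, read 10.38, 10.46, 10.44 and 10.21 in the parental arrays, 10.31, 10.28 and 10.30 in the liver arrays and 10.14, 10.17 and 10.07 in the lung arrays (-0.25, adjusted p = 0.0215). The lung arrays were below every parental array in each of the 3, and KIF18A differed from them in that liver array 1 reached the lung range. STIL, which starts centriole duplication, read 9.35, 9.21, 9.04 and 9.37 in the parental arrays, 8.91, 9.14 and 9.17 in the liver arrays and 9.03, 8.98 and 8.76 in the lung arrays (-0.32, adjusted p = 0.0379). In STIL, as in HELLS, parental array 4 was the highest array, so the change against it alone, -0.45, was larger than against all parental arrays. KIF11, the motor that pushes spindle poles apart, fell as well (-0.31, adjusted p = 0.0400), whereas KIF14, a kinesin of the midbody (-0.14, adjusted p = 0.317) and RCC1, the chromatin-bound exchange factor of the GTPase RAN (-0.15, adjusted p = 0.0896), did not pass. Without parental array 4 the calls of KIF11 and STIL were lost (adjusted p = 0.0527 and 0.0589).

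**Figure D3:**
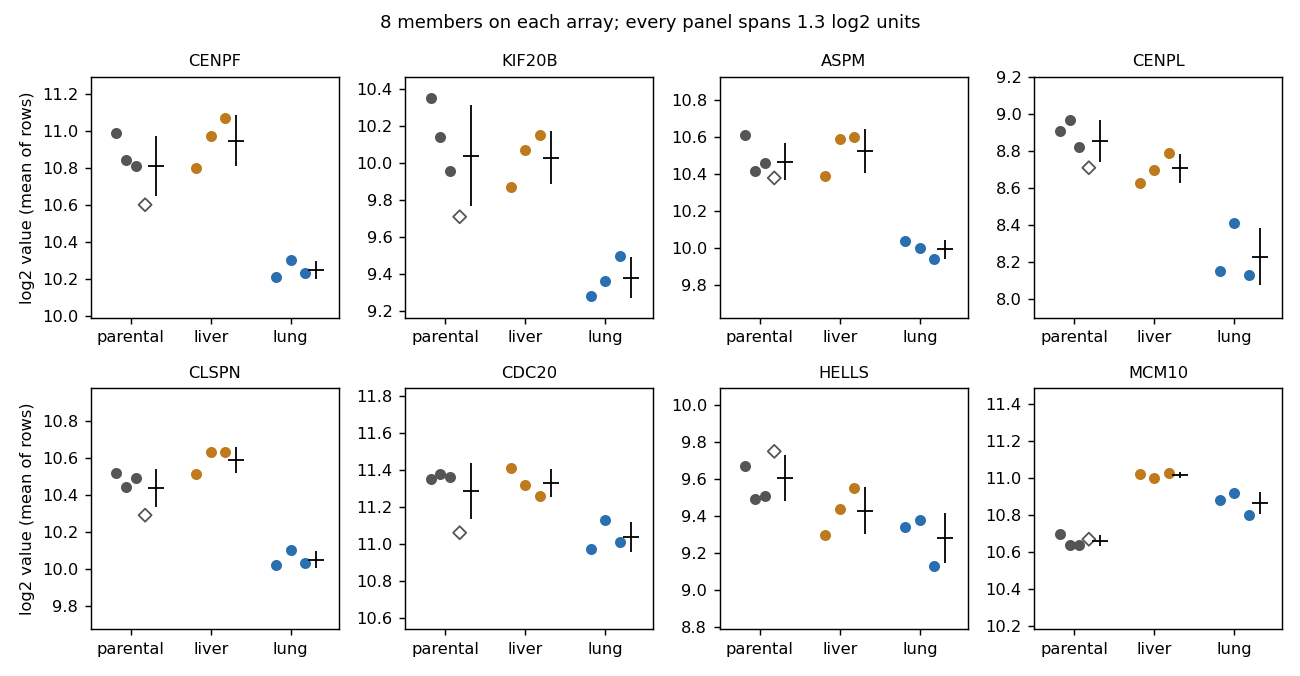
Log2 level (y axis) of CENPF, KIF20B, ASPM, CENPL, CLSPN, CDC20, HELLS and MCM10 by group (x axis); points are arrays, the open diamond is parental array 4, and bars are group mean ± SD. The lung points lie below all others for CENPF, KIF20B, ASPM, CENPL and CLSPN, parental array 4 lies among the lung points for CDC20 and above all others for HELLS, and MCM10 is higher in both kinds of derivative.

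MKI67 encodes the Ki-67 protein, the antigen stained in tumours to count cycling cells. It read 11.72, 11.71, 11.73 and 11.62 in the parental arrays, 11.55, 11.70 and 11.78 in the liver arrays and 11.44, 11.31 and 11.33 in the lung arrays. All 3 lung arrays were below all others, with a log2 change of -0.33 (SE 0.07, adjusted p = 0.00672), and 14 of its 16 rows had a negative change. FOXM1, the transcription factor of the G2 and mitosis programme, read 11.33, 11.38, 11.33 and 11.07 in the parental arrays, 11.32, 11.34 and 11.33 in the liver arrays and 10.97, 11.16 and 10.88 in the lung arrays (-0.27, adjusted p = 0.0393). Parental array 4 lay among its lung arrays, and against that array alone the change was -0.06. E2F2, the other transcription factor, read from 8.42 to 8.60 over all arrays (-0.07, adjusted p = 0.347).

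Of the 5 kinases and regulators of entry into mitosis, limma called 0 in either direction, and 1 was lower at an unadjusted p under 0.05. Over all genes 17.3% were called lower and 12.9% higher in lung against parental cells. CDK1, the kinase that drives mitotic entry, read 11.16, 11.08, 10.93 and 11.10 in the parental arrays, 10.88, 11.04 and 11.14 in the liver arrays and 10.98, 10.91 and 10.84 in the lung arrays. The groups overlapped, and the 95% interval of the log2 change in lung against parental cells, -0.33 to 0.02, covered 0 (adjusted p = 0.157). CKS1B, a small subunit bound to CDKs, read 12.48, 12.51, 12.58 and 12.54 in the parental arrays, 12.54, 12.57 and 12.46 in the liver arrays and 12.63, 12.57 and 12.55 in the lung arrays and was 1 of the 2 members with a positive change in lung cells (0.06, adjusted p = 0.478). Its groups overlapped. MASTL, the Greatwall kinase that restrains the phosphatase opposing CDK1, changed by -0.20 (adjusted p = 0.0554), CDCA3, a regulator of mitotic entry, by -0.11 (adjusted p = 0.244) and NEK2, a centrosome kinase, by -0.05 (adjusted p = 0.623). The lower bounds of the 5 intervals (95%) ran from -0.36 for MASTL to -0.07 for CKS1B.

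Of the genes that hold sister chromatids together, condense or release them, 1 of 3 was called lower, against 17.3% of all genes. ESPL1 (separase), the protease that cleaves cohesin at anaphase, read 10.77, 10.87, 10.83 and 10.46 in the parental arrays, 10.82, 10.75 and 10.71 in the liver arrays and 10.33, 10.48 and 10.36 in the lung arrays (log2 change in lung against parental cells -0.34, adjusted p = 0.0216). Lung array 2 was above parental array 4, and against that array alone the change was -0.07. CDCA5 (sororin), which protects cohesin, changed by -0.16 (adjusted p = 0.217) and NCAPD2, a condensin subunit, by -0.10 (adjusted p = 0.202). Neither RACGAP1 nor CEP55 passed. RACGAP1, a part of the centralspindlin complex that positions the cleavage furrow, read 10.52, 10.46, 10.39 and 10.34 in the parental arrays, 10.45, 10.47 and 10.50 in the liver arrays and 10.28, 10.29 and 10.17 in the lung arrays (-0.18, adjusted p = 0.0504), with all lung arrays lowest. CEP55, which recruits the abscission machinery to the midbody, changed by -0.04 (adjusted p = 0.707).

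Among the 11 genes of origin licensing and replication, 6 were called lower in the lung derivatives, against 17.3% of all genes, and 1, MCM10, higher, against 12.9%. Limma called 0 of the 11 against parental array 4 alone (5 lower and 1 higher at an unadjusted p under 0.05). ORC1, the largest subunit of the origin recognition complex, read 10.33, 10.31, 10.27 and 10.25 in the parental arrays, 10.28, 10.29 and 10.25 in the liver arrays and 9.93, 10.13 and 9.93 in the lung arrays (log2 change in lung against parental cells -0.30, SE 0.06, adjusted p = 0.00781). DTL, which directs the ubiquitin ligase that destroys the licensing factor CDT1, read 11.07, 11.05, 10.93 and 10.99 in the parental arrays, 10.97, 10.99 and 11.002 in the liver arrays and 10.72, 10.77 and 10.62 in the lung arrays (-0.31, SE 0.06, adjusted p = 0.00513). The lung arrays were lowest in both, parental array 4 was within the other parental arrays for DTL and below them for ORC1, and all 17 rows of DTL had a negative change. CLSPN (claspin), which travels with the fork and passes the stress signal to CHEK1, read 10.52, 10.44, 10.49 and 10.29 in the parental arrays, 10.51, 10.63 and 10.63 in the liver arrays and 10.02, 10.10 and 10.03 in the lung arrays (-0.39, SE 0.07, adjusted p = 0.00305). It also had no overlap.

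PRIM1, the catalytic subunit of primase, read 11.16, 11.06, 10.90 and 11.002 in the parental arrays, 10.93, 10.88 and 10.89 in the liver arrays and 10.80, 10.79 and 10.80 in the lung arrays (log2 change in lung against parental cells -0.24, adjusted p = 0.0229). POLA2, a subunit of the polymerase alpha that extends those primers, read 11.14, 11.19, 11.11 and 10.85 in the parental arrays, 11.15, 11.17 and 11.16 in the liver arrays and 10.80, 10.88 and 10.68 in the lung arrays (-0.28, adjusted p = 0.0287). HELLS, a chromatin remodelling helicase needed for DNA methylation, read 9.67, 9.49, 9.51 and 9.75 in the parental arrays, 9.30, 9.44 and 9.55 in the liver arrays and 9.34, 9.38 and 9.13 in the lung arrays (-0.32, adjusted p = 0.0239). The lung arrays were below all parental arrays in PRIM1 and HELLS, while lung array 2 was above parental array 4 in POLA2. FEN1, the nuclease that trims Okazaki fragments, is measured by 3 rows and read 10.94, 10.92, 10.93 and 10.77 in the parental arrays, 11.003, 10.92 and 10.96 in the liver arrays and 10.65, 10.59 and 10.85 in the lung arrays (-0.19, adjusted p = 0.0726). RRM1, the large subunit of ribonucleotide reductase, read 11.85, 11.89, 11.81 and 11.92 in the parental arrays, 11.76, 11.80 and 11.86 in the liver arrays and 11.79, 11.83 and 11.83 in the lung arrays (-0.05, adjusted p = 0.472). TIMELESS, of the fork protection complex (-0.15, adjusted p = 0.0637), and CDC7, the kinase that fires origins (-0.18, adjusted p = 0.114), did not pass either. The groups of RRM1 overlapped, and 2 lung arrays of FEN1 were below all others.

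Checkpoint and repair genes were called lower in 4 of 5 cases, against 17.3% of all genes, and limma called 0 of the 5 against parental array 4 alone (4 lower at an unadjusted p under 0.05). CHEK1, the kinase that halts the cycle when forks stall, read 11.32, 11.24, 11.15 and 11.14 in the parental arrays, 11.17, 11.28 and 11.34 in the liver arrays and 10.90, 10.92 and 10.82 in the lung arrays (log2 change in lung against parental cells -0.33, SE 0.07, adjusted p = 0.00624). RAD51AP1, a gene of homologous recombination, read 10.52, 10.50, 10.39 and 10.26 in the parental arrays, 10.24, 10.31 and 10.38 in the liver arrays and 10.01, 10.11 and 9.85 in the lung arrays (-0.43, SE 0.08, adjusted p = 0.00516). Both had their lung arrays below all others. RAD54L, a motor protein of homologous recombination, read 10.03, 10.10, 10.02 and 9.94 in the parental arrays, 9.79, 9.83 and 9.81 in the liver arrays and 9.70, 9.71 and 9.64 in the lung arrays (-0.34, SE 0.06, adjusted p = 0.00246). For RAD54L the groups formed 3 levels without overlap, parental above liver above lung. With the median of its rows the lung change was -0.12 (adjusted p = 0.252) and with the brightest row -0.32 (adjusted p = 0.114), and single rows ran from -2.21 to 0.10. UBE2T, the ubiquitin-conjugating enzyme of the Fanconi anaemia pathway, fell by 0.17 (adjusted p = 0.0397), and EXO1, a nuclease of mismatch repair and end resection, missed the threshold (-0.14, adjusted p = 0.0956) with every lung array below every parental array.

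**Figure D4:**
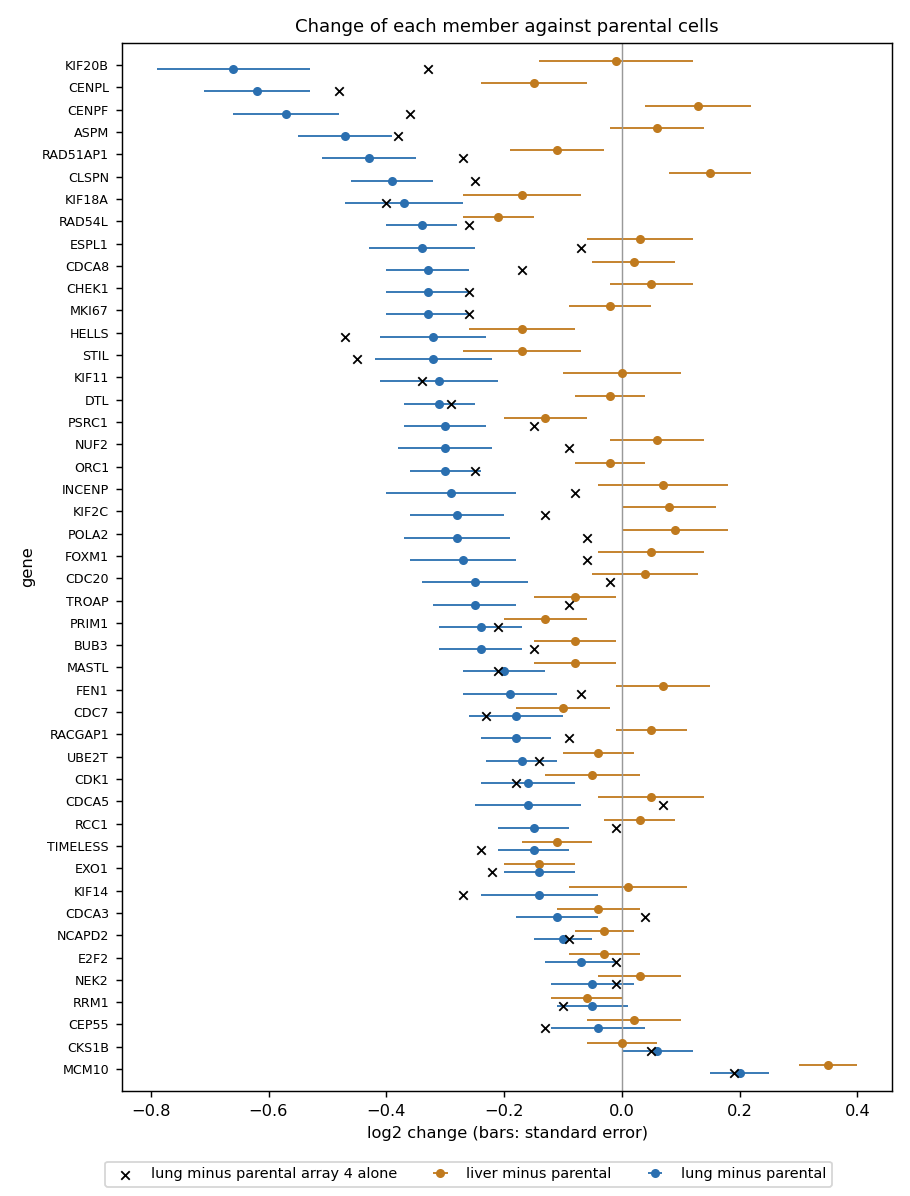
Log2 change of each member, ordered by lung change, in liver against parental and in lung against parental cells. Points are the estimates, bars ± 1 SE, and crosses are lung minus parental array 4 alone. Lung estimates are left of 0 for 44 of 46 members and most crosses are closer to 0 than the points, while the liver estimates scatter around 0 and MCM10 lies right of 0 in both.

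MCM10, which helps load DNA polymerase alpha and activates the replicative helicase, was the member that rose. It read 10.70, 10.64, 10.64 and 10.67 in the parental arrays, 11.02, 11.001 and 11.03 in the liver arrays and 10.88, 10.92 and 10.80 in the lung arrays. Every liver array was above every lung array and every lung array above every parental array. The rise was 1.28-fold in liver (log2 change 0.35, SE 0.05, adjusted p = 0.00171) and 1.15-fold in lung cells (0.20, SE 0.05, adjusted p = 0.0185). The comparisons share the parental arrays. Against parental array 4 alone the lung value was 0.19 and the call was lost (adjusted p = 0.165). It was also lost with the median of its rows (0.15, adjusted p = 0.135) and without parental array 2, lung array 1 or lung array 2 (adjusted p = 0.0551, 0.0567 and 0.0583), while the liver call held without any single array. Of its 23 rows, 22 were positive in liver, with a median of 0.41 and a range from -0.34 to 0.62, and 3 were called. In lung cells 19 rows were positive. The difference of -0.15 between the kinds of derivative did not pass (adjusted p = 0.0889). The other 45 members had liver changes from -0.21 to 0.15.

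RAD54L was the other member called in the liver derivatives. It fell by 0.21 on the log2 scale, or 1.16-fold (SE 0.06, adjusted p = 0.0460), with every liver array below every parental array, and none of its 19 rows was called alone. This call was lost on leaving out any 1 array other than parental array 4, with adjusted p from 0.0504 to 0.169, and with the brightest row (-0.09, adjusted p = 0.821) or the median of its rows (-0.13, adjusted p = 0.460). TIMELESS and EXO1 also had every liver array below every parental array, without a call (-0.11 and -0.14, adjusted p = 0.338 and 0.230). Such a separation was seen in 3 of 46 members, beside 432 of 4713 genes. Over all members, 21 of 46 liver changes were positive, against 53.1% of genes, and 13 were without parental array 4. CLSPN came next to MCM10 at 0.15 (adjusted p = 0.259) with CENPF at 0.13 (adjusted p = 0.554), and HELLS, STIL and KIF18A followed RAD54L at -0.17, -0.17 and -0.17 (adjusted p = 0.368, 0.468 and 0.425). MKI67 changed by -0.02 (95% interval -0.17 to 0.14), CDK1 by -0.05 (-0.22 to 0.13), FOXM1 by 0.05 (-0.14 to 0.25) and CDC20 by 0.04 (-0.15 to 0.23).

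Set directly against the liver derivatives, the lung derivatives had 20 of 46 members called lower, against 11.9% of genes, and 0 called higher by limma, against 8.02% (0 also at an unadjusted p under 0.05). At levels of 9 to 10, 10 to 11 and 11 to 12, 1 of 9, 13 of 23 and 5 of 10 members were called lower, against 19.8%, 25.7% and 21.1% of other genes. The median change was -0.19 and 44 of 46 were negative, against 54.2% of genes. After quantile normalization 12 members were lower, with 451 of all genes higher and 373 lower in place of 378 and 559, and after median centring 15, with 499 and 421. In 29 members every lung array was below every liver array, against 27.2% of all genes. The lung arrays enter both this comparison and that with parental cells. The most negative changes were those of CENPF (-0.70, SE 0.10, adjusted p = 0.00661), KIF20B (-0.65, SE 0.14, adjusted p = 0.0161), CLSPN (-0.54, SE 0.07, adjusted p = 0.00573) and ASPM (-0.53, SE 0.08, adjusted p = 0.00793). By role, 6 of 7 kinetochore and checkpoint genes, 5 of 11 replication genes, 3 of 10 motors and spindle genes and 2 of 5 checkpoint and repair genes were lower, with MKI67, FOXM1, ESPL1 and RACGAP1. INCENP (-0.36, adjusted p = 0.0440), FEN1 (-0.26, adjusted p = 0.0426) and RACGAP1 (-0.23, adjusted p = 0.0385) were also called lower, and their changes against parental cells were -0.29, -0.19 and -0.18. RRM1 (0.01) and CKS1B (0.06) had the positive values, and neither passed (adjusted p = 0.951 and 0.502). No liver array belongs to the set of parental array 4 and the lung arrays, and with the term for that set 0 members were called by limma (0 higher and 5 lower at an unadjusted p under 0.05), against 0.0637% of genes higher and 0.0212% lower, and the median was -0.11. Without liver array 1, 2 or 3, the members called were 10, 2 and 3, and without lung array 1 or 3 they were 5 and 11. All genes called fell too, from 937 to 364, 31, 174, 188 and 602 in the same order.

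Single rows of a member, each taken here as probes for 1 stretch of the gene, were fitted as well. Of 786 member rows, 608 had a negative change in lung against parental cells; 135 (17.2%) were called lower, against 7.99% of all rows, and 10 (1.27%) higher, against 5.15%. In liver against parental cells 3 rows were called higher, those of MCM10, against 1.15% of all rows, and limma called 0 lower, against 1.04% (28 higher and 26 lower at an unadjusted p under 0.05). The lung change was more negative in member rows below a level of 10 than in those above 11. Member rows with a mean level under 8 had a median change of -0.39 (48 rows), those from 9 to 10 of -0.37 (159 rows), those from 11 to 12 of -0.14 (198 rows) and those of 12 or more of -0.08 (87 rows). Other rows had medians of 0.04, -0.08, -0.07 and -0.04 in the same ranges. The share of rows called lower was 20.8%, 23.9%, 12.6% and 2.30% for members and 4.33%, 13.1%, 7.79% and 2.19% for other rows. The brightest row of KIF20B changed by -0.00, against -0.66 for the gene, that of ASPM changed by -0.02, and that of CENPF by -0.53. With the brightest row in place of the mean of rows, 6 members were called lower and 1 higher, beside 314 of all genes lower and 737 higher, 33 of 46 changes were negative, and the median was -0.12, against 0.07 over all genes.

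**Figure D5:**
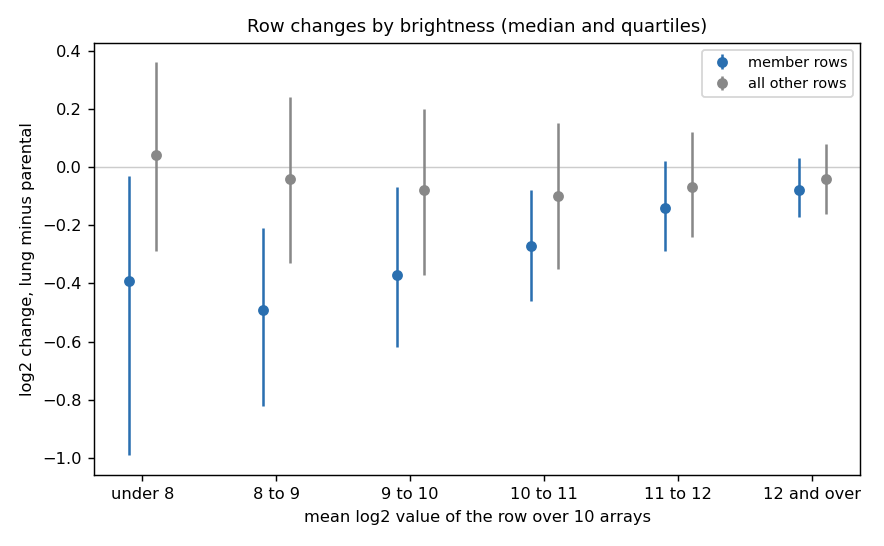
Lung minus parental log2 change of table rows (y axis) by mean log2 level of the row (x axis), for the 786 member rows and for all other rows; medians and quartiles per range of level. Member rows have medians from -0.49 to -0.27 below a level of 11 and -0.08 at 12 or more, while other rows stay between -0.10 and 0.04.

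Set beside the promoters shown at the start, the median lung change was -0.28 over the 25 members with a CHR match and -0.26 over the 16 without, -0.21 with an E2F match and -0.29 without, and -0.32 with at least 2 CCAAT boxes and -0.22 with fewer. CDC20, CDCA8 and ASPM, with CHR matches, changed by -0.25, -0.33 and -0.47. RAD51AP1, DTL and HELLS, with E2F matches, changed by -0.43, -0.31 and -0.32. MCM10 (0.20) had neither match. CHEK1 (-0.33), ORC1 (-0.30), FEN1 (-0.19), TIMELESS (-0.15) and NEK2 (-0.05) also had neither.

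Other genes of the same pathways were measured too, from lists with no member in them. Of 66 other mitosis genes 19 were measured, and 5 were called lower and 0 higher in lung against parental cells (8 lower and 0 higher at an unadjusted p under 0.05), with a median of -0.13. This is 26.3% lower, against 17.3% of all genes, and limma called 0 of the 19 against parental array 4 alone (4 lower at an unadjusted p under 0.05). The list's median level by array lay between 10 and 11, where 29.2% of non-member genes were called lower, with a median change of -0.12. The 5 mitosis genes called lower include GAS2L3 (-0.51, adjusted p = 0.00322), which links actin and microtubules during cytokinesis, and TTF2 (-0.21), which clears RNA polymerase from mitotic chromosomes. They also include the condensin II subunit NCAPD3 (-0.22) and the microtubule polymerase CKAP5 (-0.24). Of 68 other replication and repair genes 21 were measured, and 8 were lower and 0 higher (9 and 1 unadjusted). This is 38.1% lower, with a median of -0.17. Their median level by array was 9.80 to 10.26. Of non-member genes, 30.2% at levels of 9 to 10 and 29.2% at 10 to 11 were called lower, with medians of -0.11 and -0.12. Against parental array 4 alone the median of the 21 was -0.13, with 19 negative changes. POLD3, a subunit of polymerase delta, changed by -0.41 (adjusted p = 0.00793), the nuclease DCLRE1A by -0.32, the helicase DDX11 by -0.22 and PARP1, which senses strand breaks, by -0.25. In liver against parental cells limma called 0 genes of either list (1 higher and 1 lower, and 1 higher and 4 lower, at an unadjusted p under 0.05).

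Of 17 measured CDKs, cyclins and their regulators, 4 were lower (23.5%, against 17.3% of all genes) and 3 higher (against 12.9%) in lung cells. Their median level by array was 9.07 to 9.39, and at levels of 9 to 10 the share of non-member genes called lower was 30.2%. The median change of the 17 was -0.00 with all parental arrays and -0.04 against parental array 4 alone, with 9 and 11 negative. The p53 regulators MDM4 (-0.50, adjusted p = 0.00198) and MDM2 (-0.43, adjusted p = 0.00368) and the S-phase kinase CDK2 (-0.25, adjusted p = 0.00889) were lower, and E2F8 and CDKN1C were higher. CCND2, the cyclin D2 that partners CDK4 and CDK6, read 7.54, 7.72, 7.67 and 6.84 in the parental arrays, 9.70, 9.68 and 9.62 in the liver arrays and 8.42, 8.55 and 9.34 in the lung arrays. All derivative arrays were above all parental arrays, by 2.23 in liver (4.68-fold, adjusted p = 0.000121) and 1.33 in lung cells (2.51-fold, adjusted p = 0.00304). BTG2, an antiproliferative gene of the p53 response, was the other gene of this list called in the liver derivatives, at -0.47 (adjusted p = 0.0154).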

How the data were processed

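Total RNA of 10 samples was labelled with biotin and hybridised to Affymetrix HG1.0ST arrays. The deposited values are log2 expression levels that the authors made by RMA, which corrects background, quantile-normalizes and summarises probes. The submitters' processing notes name RMA and oligo, an R package, with versions, genome build and summary level not given in the sources used here. RMA puts arrays on a common distribution, so a change in total RNA per cell cannot be seen. The table holds 65535 rows, which may not be all, and medians of 8.52 to 8.60 on the 10 arrays. Rows with several listed genes (2143) or none (8586) were not used for genes.

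The 54806 rows with 1 symbol were averaged per gene, after 602 of 4727 symbols were updated through a RefSeq table. ORC1 is listed as ORC1L and CDK1 as CDC2, a former symbol that POLD1 shares. The 4713 genes, with no filter on dim ones, were fitted with limma (version 3.58.1, R 4.3.3): 3 groups, 10 arrays, eBayes, two-sided, Benjamini-Hochberg adjustment over all genes, calls at 0.05. The 56949 rows were fitted likewise. On simulated data the fit was tested for recovery of known changes. The number of arrays limits the precision.

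The members and lists were chosen with earlier results of these data known, the set of parental array 4 and the lung arrays included. Values by array are given for the members called (up to 20 in a comparison, by adjusted p), the 3 largest rises and falls, CDK1, MKI67, FOXM1, CDC20 and CENPF, and up to 4 called genes of each other list are named. Alternatives were the brightest or median row, quantile normalization, median centring, leaving out the dimmest 25% of rows, a trended prior, the array set, a replicate block and leaving out each array. Same-numbered arrays did not deviate together (correlations of deviations -0.20 to 0.13), so the numbers were not used as pairs.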

Additional observations from a re-analysis of the deposited data

Results flagged for a closer look

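In the 4 parental arrays, array 4 was far below the other 3 for 5 members. It read 11.06 for CDC20 (11.35 to 11.38 in the others), 11.62 for MKI67 (11.71 to 11.73), 9.89 for PSRC1 (10.07 to 10.11), 10.77 for FEN1 (10.92 to 10.94) and 10.73 for RCC1 (10.90 to 10.93). Chance marks about 1 in 20 groups in this way.

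For 20 members the change from parental cells differed between the lung and the liver derivatives by limma's test of the difference. These are the calls of lung against liver given above, 43.5% of members lower, against 11.9% of all genes. The change was lower in lung by -0.70 for CENPF, -0.37 for NUF2, -0.29 for CDC20, -0.47 for CENPL and -0.35 for CDCA8 among kinetochore genes, and by -0.36 for INCENP. It was -0.65 for KIF20B, -0.53 for ASPM and -0.36 for KIF2C among spindle genes, and -0.54 for CLSPN, -0.37 for POLA2, -0.29 for DTL, -0.28 for ORC1 and -0.26 for FEN1 among replication genes. It was -0.38 for CHEK1 and -0.32 for RAD51AP1, -0.31 for MKI67, -0.32 for FOXM1, -0.37 for ESPL1 and -0.23 for RACGAP1. With the term for the set of parental array 4 and the lung arrays, 0 of the 20 passed.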

How the results depend on the processing

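The member median stayed below 0 in both lung comparisons under every alternative run, and was between -0.04 and 0.01 in liver. Counts of calls moved more; where no construction shows it, the cause was not tested. With the brightest row of a gene, 134 of 4713 genes and 1 of 46 members were called in liver. In lung 1051 genes and 7 members were called (median -0.12, all genes 0.07). In lung against liver 1183 genes and 8 members were called (median -0.13, all genes 0.04). On that row the lung changes turned positive for NUF2 (0.09), KIF2C (0.16), ESPL1 (0.04) and STIL (0.47), and against liver for NUF2 (0.10), KIF2C (0.17) and ESPL1 (0.15). With the median row, 269 genes and 1 member were called in liver and 877 genes and 12 members in lung (median -0.17). In lung against liver 640 genes and 11 members were called, with ORC1 at 0.06 and RACGAP1 at 0.11. Quantile normalization left 1223 genes and 18 members in lung (median -0.21) and 824 genes and 12 members against liver (median -0.13). With the array set as a term, which leaves 1 parental array for the lung, 271 genes and 1 member were called in lung (median -0.16) and 4 genes and 0 members against liver (median -0.11), with CDC20 at 0.01 and ESPL1 at 0.00. Of the 28 members called in lung, 4 kept their call with the brightest row, 11 with the median row, 18 after quantile normalization, 22 after median centring and 28 with the dim filter or the trended prior. With the replicate block, whose numbers pair no samples, 348 genes and 2 members were called in liver and 1788 genes and 30 members in lung, with a median of -0.29.

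Leaving out 1 array at a time gave 219 to 422 genes and 1 to 2 members in liver (median -0.04 to -0.00). In lung it gave 832 genes (without parental array 2) to 1950 (without parental array 4) and 15 to 32 members, with 15 without parental array 1 or 2, 17 without lung array 1 and 18 without lung array 3 (median -0.30 to -0.23). In lung against liver it gave 31 genes (without liver array 2) to 1523 (without parental array 4) and 2 to 22 members, with 10 without liver array 1, 3 without liver array 3, 5 without lung array 1 and 11 without lung array 3 (median -0.23 to -0.17). No replicate check exists for the lone parental array 4 within its set.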
